A study of Mus musculus with 8 samples.

Results

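The genes described here are 10 cytosolic glutathione transferases of the mouse, Gstm1, Gstm2, Gstm4, Gstm5, Gstm6, Gstm7, Gsta4, Gstp1, Gstt1 and Gstt2, out of 22609 gene symbols counted in the series. The group was built around Gstm4, which was chosen by its reads, found in the Bmp2 knock-out cells and absent from the floxed cells. The measured values of the genotype contrast were thus used in the choice, and they are given below as a description without a test. The rule for the choice used neither culture time nor the sequence of the transcripts.

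Glutathione transferases join the tripeptide glutathione to reactive electrophiles, which makes these compounds soluble and less harmful. The cytosolic enzymes fall into classes named by Greek letters, and the mu (Gstm), alpha (Gsta), pi (Gstp) and theta (Gstt) classes are represented here. The conjugates leave the cell through transporters and are trimmed to mercapturates, and many of the genes involved are targets of Nrf2, the transcription factor of the antioxidant response. Bmp2, the gene deleted in the study, encodes a secreted growth factor needed for the maturation of dental papilla cells, the mesenchyme that gives rise to odontoblasts and pulp.

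The RNA-seq data came from immortalized mouse dental papilla cells. The iBmp2 fx/fx cells, called floxed here, carry floxed Bmp2 alleles, and the iBmp2 ko/ko cells, called knock-out, carry the Bmp2 deletion. Total RNA was sequenced once per genotype after 6, 24, 48 and 72 h of culture, which gave 8 libraries of 50-base reads. The first time is given as 6 h by the labels and as 8 h by the series design, and 6 h was used here. The sources used here mention no second line of either genotype, so a difference between genotypes and a difference between 2 cell lines cannot be told apart. No genotype was sequenced more than once at a time, so the 3 culture times stand in for replicates and the SD also holds any change with time.

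The libraries held 25890110 to 32415665 reads on genes. Values over the 3 libraries per genotype of 6, 48 and 72 h are given first, because the study's methods list these times. The 24 h library labelled knock-out stood apart. Over the 287 genes called between genotypes in the 6 libraries of the other times, its level was nearer to the floxed mean for 283 genes and nearer to the knock-out mean for 4. The floxed library of 24 h was nearer to its own mean for 271 of these genes. Bmp2 itself could not check the labels, since it had 1 read in the floxed library of 24 h and 0 in the other 7. Of 13 markers of dental mesenchyme, 11 (among them Msx1, Pax9, Lhx6 and Prrx1) were above 1 CPM in every library, while Lhx8 and Barx1 had at most 3 reads in any. None of 5 epithelial and 4 endothelial markers was above 1 CPM in every library, and of 5 immune markers only Cd68 was. The summed level of the mesenchyme markers was 7057 to 8711 CPM in the 4 floxed libraries, 9585 to 13011 CPM in the knock-out libraries of 6, 48 and 72 h and 8133 CPM in the 24 h library labelled knock-out. The immune markers summed to 4.25 to 14.4 CPM in the floxed libraries, 2.89 to 3.44 CPM in those 3 knock-out libraries and 6.23 CPM in the 24 h library, with Ptprc and Cd52 at no more than 3 reads, while the sums of the epithelial and endothelial markers were at most 3.63 CPM and overlapped. The part of these markers in the results below was not tested.

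In the mouse build mm9 the 6 mu genes and Gstm3 lie side by side within 149 kb of chromosome 3 (chr3:107698739-107847812). Gstm4 sits at the end with the higher coordinates (chr3:107843326-107847812, minus strand), next to Gstm1 (chr3:107815173-107820891, minus strand) and Gstm2 (chr3:107784620-107789371, minus strand). Gsta4 lies at chr9:78039773-78057155 on the plus strand, Gstt1 and Gstt2 at chr10:75246558-75261329 and chr10:75294590-75297626 on the minus strand, and Gstp1 at chr19:4035411-4037921 on the minus strand. All 10 are annotated as protein-coding. The coding sequence of Gstm4 was 80.8% identical to that of Gstm1, 82.6% to Gstm2, 82.3% to Gstm7, 81.3% to Gstm6 and 72.5% to Gstm5.

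Because these genes are so alike, the first question was whether a 50-base read can tell them apart. Counting by HTSeq sets aside reads with several positions, and 41.3 to 49.6% of the alignments in a library were of such reads. The stretch of 50 coding bases in which Gstm4 most resembles Gstm1, Gstm2 and Gstm7 (coding bases 184 to 233) is shown first, with capitals where a gene differs from Gstm4.
Gstm4: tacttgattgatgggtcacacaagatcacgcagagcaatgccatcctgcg
Gstm1: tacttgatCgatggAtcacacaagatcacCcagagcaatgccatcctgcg
Gstm2: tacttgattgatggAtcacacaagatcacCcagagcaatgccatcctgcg
Gstm7: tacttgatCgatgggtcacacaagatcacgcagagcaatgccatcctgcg

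Even here Gstm4 differed from Gstm7 at 1 base, from Gstm2 at 2 and from Gstm1 at 3. The stretch in which it is least like them (coding bases 318 to 367) differed at 16 to 19 of 50 bases, as the capitals again show.
Gstm4: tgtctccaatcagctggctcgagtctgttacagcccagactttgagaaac
Gstm1: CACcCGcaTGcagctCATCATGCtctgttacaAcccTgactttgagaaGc
Gstm2: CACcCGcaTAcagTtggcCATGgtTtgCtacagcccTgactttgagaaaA
Gstm7: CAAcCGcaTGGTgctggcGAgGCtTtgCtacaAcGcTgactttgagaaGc

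Of the 1658 windows of 50 bases along the Gstm4 transcript, 0 had an exact copy in another glutathione transferase transcript and 5 had one elsewhere in the genome. With 2 mismatches allowed, 10.8% of the windows had a copy elsewhere. No exact copy was found for any window of Gstm5, Gstm7, Gsta4, Gstt1 or Gstt2. Reads from Gstm1 and Gstm2 are less well placed, with an exact copy elsewhere for 30.9% and 43.6% of windows. A copy within 2 mismatches was found for 73.9% and 77.6%. In another glutathione transferase transcript, an exact copy was found for only 14.8% of the Gstm1 windows and 1.08% of the Gstm2 windows.

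Gstp1 is the member most affected. Its neighbour Gstp2 differs from it at 12 of 633 coding bases, and 68.6% of the Gstp1 windows had an exact copy elsewhere. The stretch of coding bases 58 to 107 is the same in both genes, and the stretch of bases 1 to 50 is the one in which they differ most, at 5 bases (capitals).
Gstp1 58 to 107: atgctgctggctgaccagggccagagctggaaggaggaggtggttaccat
Gstp2 58 to 107: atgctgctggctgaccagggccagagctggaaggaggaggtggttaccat
Gstp1 1 to 50: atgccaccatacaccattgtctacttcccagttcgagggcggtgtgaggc
Gstp2 1 to 50: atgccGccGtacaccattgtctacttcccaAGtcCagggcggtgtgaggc

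The counts of Gstp1, Gstm1 and Gstm2 therefore leave out their reads from stretches with an exact copy. Whether misplaced reads of near copies add to these counts was not tested. Gstp2 itself had 3 to 33 reads per library. In Gstm6, 9.91% of windows had an exact copy, and its exons share bases with those of Gstm3 on the same strand. Gstm5 shares exon bases with 4933431E20Rik on the opposite strand, and the strand setting of the counting is not given in the sources used here, so reads of these 2 genes may not be told apart.

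**Figure D1:**
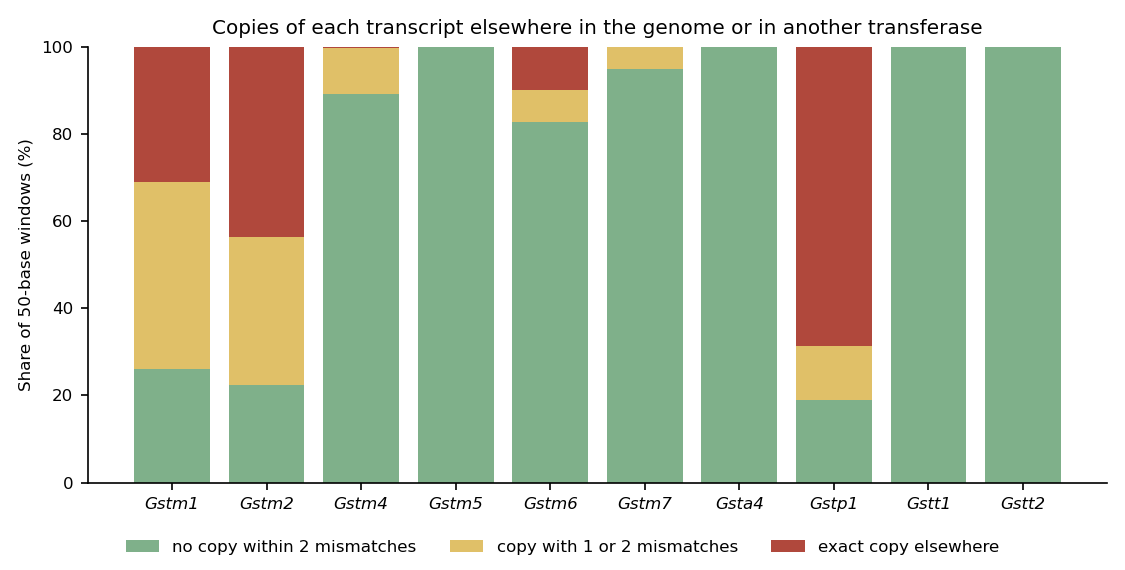
Share of the 50-base windows of each member transcript (vertical axis, %) with an exact copy elsewhere (red), with a copy that has 1 or 2 mismatches (yellow) and with neither (green). Gstp1 had an exact copy for 68.6% of its windows, and Gstm4 had one for 5 of 1658.

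Gstm4, a mu enzyme, had no read in any floxed library. The reads in the knock-out cells were 55 at 6 h, 37 at 48 h and 21 at 72 h, and the 24 h library labelled knock-out held 3. In CPM (reads per 1000000 reads of the library, with library sizes scaled by TMM) these were 1.801, 1.1996, 0.868 and 0.113. The 3 libraries of 6, 48 and 72 h lie far above the floxed libraries, and the one of 24 h lies at the smallest level that counted as detectable.

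Taking 3 reads as that smallest level in each floxed library, Gstm4 was at least 19.1-fold higher in the knock-out cells at 6 h, at least 12.9-fold at 48 h and at least 8.84-fold at 72 h. No fold is given for 24 h, where both libraries were at or under 3 reads. This floor covers counting error only. The mean level in the knock-out cells was 1.29 ± 0.473 CPM (SD, n = 3), so that Gstm4 was a weakly expressed gene where it was found at all. Expressed per kilobase of exon (RPKM, on the same library sizes), its 0.755 ± 0.277 (SD, n = 3) compares with 78.3 ± 54.5 for Gstm1 and 45.4 ± 21.6 for Gstm2 in the same libraries.

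The 2 most abundant mu genes, Gstm1 and Gstm2, showed no direction between genotypes that held at each of 6, 48 and 72 h. At 6, 48 and 72 h Gstm1 was at 165, 167 and 30.3 CPM in the floxed cells and at 171, 133 and 24.1 CPM in the knock-out cells. Gstm2 was at 102, 97.2 and 49.5 CPM in the floxed cells and at 109, 81.6 and 37.7 CPM in the knock-out cells. For both genes the genotypes overlapped, with the 72 h library the lowest of its genotype. The log2 fold change between genotypes was -0.13 (SE 0.806) for Gstm1 and -0.11 (SE 0.437) for Gstm2, and its sign differed between culture times.

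The mu genes Gstm5, Gstm6 and Gstm7 were lower in the knock-out library at each of 6, 48 and 72 h, but their ranges overlapped between genotypes. Gstm5 was at 29.2, 27.6 and 12.4 CPM in the floxed cells and at 26.1, 17.7 and 7.975 CPM in the knock-out cells, a log2 fold change of -0.40 (SE 0.494). Gstm7 was at 11.5, 8.83 and 1.21 CPM against 7.89, 6.94 and 0.331 CPM, a log2 fold change of -0.48 (SE 1.07). Gstm7 was lowest relative to the floxed library at 72 h, with a ratio of 0.273, where the counts were 37 and 8. Gstm6 was near the limit of detection, with 20, 14 and 3 reads in the floxed cells and 16, 4 and 2 in the knock-out cells. 4933431E20Rik, whose exons overlap those of Gstm5, had 676, 570 and 205 reads in the floxed libraries of 6, 48 and 72 h and 415, 396 and 84 in the knock-out libraries, the same order as Gstm5.

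Gsta4, an alpha enzyme that conjugates hydroxynonenal and other products of lipid peroxidation, had the lowest log2 fold change among the members in the fit over the 3 times. It was at 20.6, 30.9 and 3.47 CPM at 6, 48 and 72 h in the floxed cells and at 14.7, 7.68 and 1.69 CPM in the knock-out cells. The knock-out library was the lower one at each of these times, with a ratio of 0.249 at 48 h, but the groups overlapped, since both were low at 72 h. The log2 fold change was -1.16 (SE 0.907), and with culture time as a block it was -1.18 (SE 0.287). Single libraries moved it, to -0.58 without the floxed library of 48 h, -0.72 without the knock-out library of 72 h and -1.95 without the knock-out library of 6 h. In the log2 ratio at 1 time Gstm7 was lower than Gsta4 at 6 h (-0.55 beside -0.49) and at 72 h (-1.87 beside -1.03).

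The pi and theta genes lay in the opposite direction. Gstp1, the pi enzyme, was at 83.8, 89.5 and 39.9 CPM in the floxed cells and at 114, 99.6 and 59.9 CPM in the knock-out cells, with a log2 fold change of 0.37 (SE 0.369). Gstt1, a theta enzyme that acts on small halogenated hydrocarbons, was at 20.3, 29.4 and 16.9 CPM against 49.0, 42.4 and 20.5 CPM, a log2 fold change of 0.76 (SE 0.376). Both were higher in the knock-out library at each of the 3 times, with overlap between the groups. Gstt2, its neighbour, was at 1.73, 1.58 and 0.818 CPM in the floxed cells and at 3.34, 3.47 and 1.74 CPM in the knock-out cells. Its groups did not overlap, but only narrowly, with 1.74 CPM in the knock-out cells at 72 h beside 1.73 CPM in the floxed cells at 6 h. With total counts as library sizes they overlapped. The log2 fold change of Gstt2 was 1.06 (SE 0.440), and the ratio was 1.94 at 6 h, 2.19 at 48 h and 2.12 at 72 h.

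**Figure D2:**
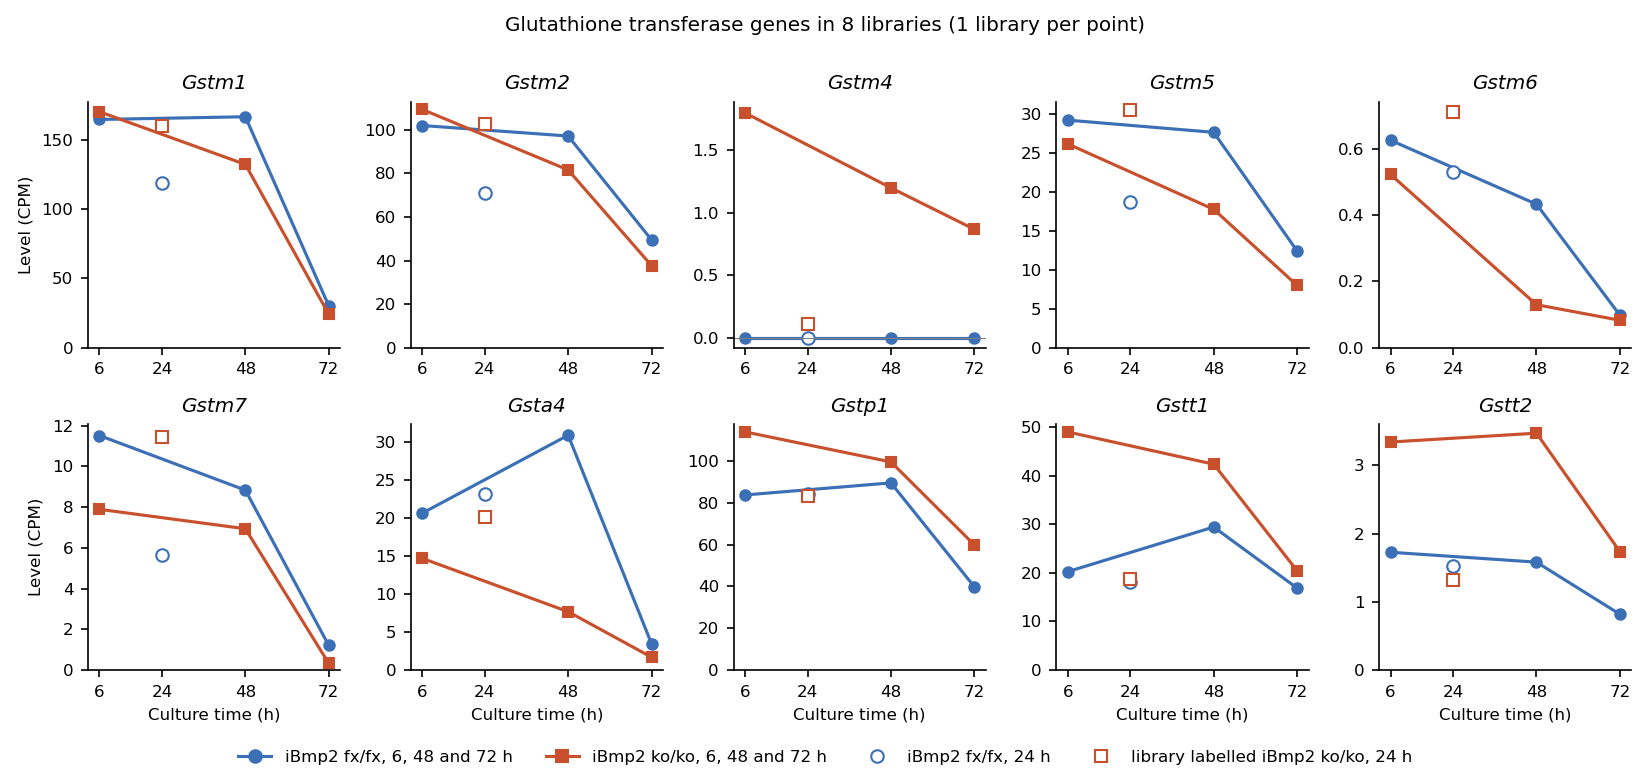
Level of each member (vertical axis, CPM, linear scales that differ between panels) against culture time (horizontal axis, h) in the floxed (blue circles) and knock-out (red squares) cells, 1 library per point, with the 24 h libraries as open symbols. Gstm4 was at 0 in the 4 floxed libraries, and most other members were lowest at 72 h in both genotypes.

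Counted over the group, 4 members were higher and 6 lower in the knock-out cells, and the median log2 fold change was -0.12 beside 0.03 over the 13121 genes tested. All 10 members had enough counts to be tested in these 6 libraries, Gstm4 through the knock-out libraries alone. Gstm4 and Gstt2 did not overlap between genotypes, beside 20% of all genes tested. Since this contrast chose the group, these counts describe the choice.

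In the 24 h library labelled knock-out, 9 of the 10 members were nearer to the floxed mean than to the knock-out mean, the exception being Gstp1. A share over all genes tested is not given here. The library lay above both means for Gstm1, Gstm2, Gstm5, Gstm6, Gstm7 and Gsta4, and below both for Gstt1 and Gstt2. For these members the nearer mean was set by which mean was higher. Gstm2, Gstm5 and Gstm6 were above all 4 floxed libraries. Gstt1 was at 18.8 CPM and Gstt2 at 1.31 CPM in the 24 h library labelled knock-out, within the range of the 4 floxed libraries. Gstm5 at 30.4 CPM, Gstm7 at 11.4 CPM and Gstm2 at 103 CPM were above the floxed library of the same time, which had 18.7, 5.65 and 70.9 CPM. Over all 8 libraries the only member without overlap between genotypes was Gstm4, which rested on 3 reads against 0 and no longer passed the filter on low counts. Of the 13053 genes that passed it over 8 libraries, 3.68% did not overlap.

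**Figure D3:**
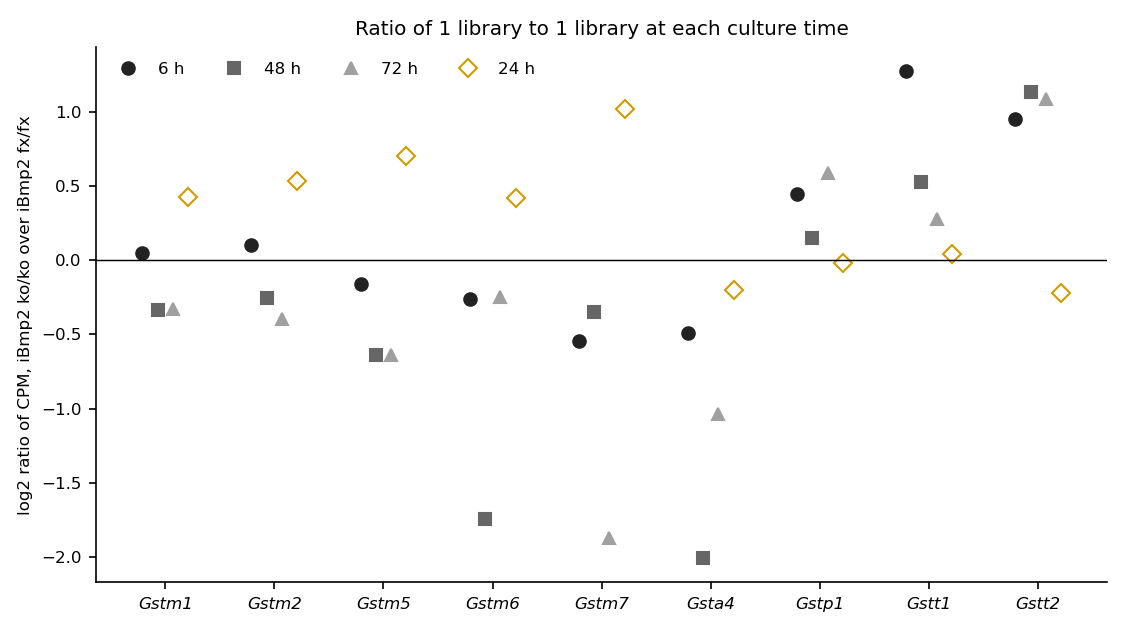
Log2 ratio of CPM in the knock-out library to CPM in the floxed library (vertical axis) for 9 members at 6, 48 and 72 h (filled symbols) and at 24 h (open diamonds), each from 1 library of each genotype. Gstm5, Gstm6 and Gstm7 lay below 0 at 6, 48 and 72 h and above 0 at 24 h, and Gstt2 lay above 0 at those times and at -0.22 at 24 h.

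Levels were compared between members per kilobase of exon. In the floxed cells the order of mean RPKM was Gstp1 (94.4 ± 36.1), Gstm1 (86.6 ± 56.2), Gstm2 (49.4 ± 17.3), Gsta4 (19.2 ± 14.5), Gstm5 (18.0 ± 7.25), Gstt1 (14.5 ± 4.25), Gstm7 (4.49 ± 3.34), Gstt2 (1.00 ± 0.356) and Gstm6 (0.194 ± 0.135), each as mean ± SD with n = 3. The libraries of neighbours in this order overlapped, except those of Gstt1 with Gstm7 and of Gstt2 with Gstm6. In the knock-out cells Gstp1 was at 121 ± 37.2, and Gstt1 (24.4 ± 9.78) stood above Gstm5 (13.5 ± 7.11) and Gsta4 (8.39 ± 6.80), again with n = 3. When CPM was divided by the number of windows without an exact copy in place of the exon length, Gstp1 stood further above the rest, at 326 CPM per kilobase of such windows in the floxed cells beside 145 for Gstm2 and 141 for Gstm1.

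Culture time was tested next. On the log2 of culture time, with genotype as a term, the slope of all 10 members was negative, with a median of -0.28 per doubling of time. Of the 13121 genes tested, 6595 had a negative slope, and the median was -0.00097. The slope of Gstm4 rests on the knock-out libraries alone. None of the members passed in edgeR's quasi-likelihood test at an adjusted p of 0.05, with adjusted p between 0.200 and 0.552. At an unadjusted p under 0.05 the test found 2 members, Gstm5 and Gstm6. Over all genes it called 0%, with 2775 genes at an unadjusted p under 0.05, while DESeq2 called 986 genes and 0 of the 8 members to which it gave an adjusted p (not Gstm4 and Gstm6), with 4 members and 24.4% of all genes at an unadjusted p under 0.05. A difference in slope between the genotypes was called in edgeR for 0% of genes and 0 members, with 63 genes and 0 members at an unadjusted p under 0.05, in a fit with 2 residual degrees of freedom. For Gstm4, without floxed reads, this difference cannot be estimated, so the count of members says nothing about it.

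In both genotypes each member but Gstm4 in the floxed cells, where it had no reads, had its lowest level of 6, 48 and 72 h at 72 h. A coding of 72 h against 6 and 48 h was added after these values were seen, with genotype as a term. Its counts and differences describe the pattern that prompted it and are no independent test of it. In edgeR's quasi-likelihood test 8 of the 10 members were lower at 72 h at an adjusted p of at most 0.05, and 14.7% of all genes tested were. The median log2 difference was -1.27 for the members and -0.03 for all genes. DESeq2 also called 8 members, and 17.9% of all genes as lower. With 24 h included as an early time, 7 members and 11.1% of all genes were called lower over all 8 libraries, where Gstt1 and Gstt2 were no longer called and Gstm6 was, and 7 members and 13.2% of all genes without the library labelled knock-out, where Gstt1 was no longer called.

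The fall was largest in Gstm7, with a log2 difference of -3.60 (SE 0.403). It was -2.84 for Gsta4 (SE 0.359) and -2.58 for Gstm1 (SE 0.179). Gstm1 was 5.49-fold lower at 72 h than the mean of 6 and 48 h in the floxed cells and 6.29-fold lower in the knock-out cells. These 3 genes come from the mu and alpha classes.

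The other called members fell less. The log2 difference was -1.35 (SE 0.223) for Gstm5, -1.20 (SE 0.186) for Gstm2, -1.02 (SE 0.260) for Gstt2, -1.003 (SE 0.137) for Gstp1 and -0.87 (SE 0.241) for Gstt1. Gstm6 (log2 difference -2.22, SE 0.761) and Gstm4 (-0.85, SE 0.571) were not called over the 6 libraries. The summed level of the 10 members went from 435 CPM at 6 h and 453 at 48 h to 155 at 72 h in the floxed cells, and from 497 and 393 to 155 CPM in the knock-out cells. There was 1 library per genotype at 72 h. Alignments with several positions made up 45.6% and 49.6% of all alignments in these 2 libraries, against 41.3 to 48.4% in the 4 libraries of 6 and 48 h, and their part in the fall was not tested.

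**Figure D4:**
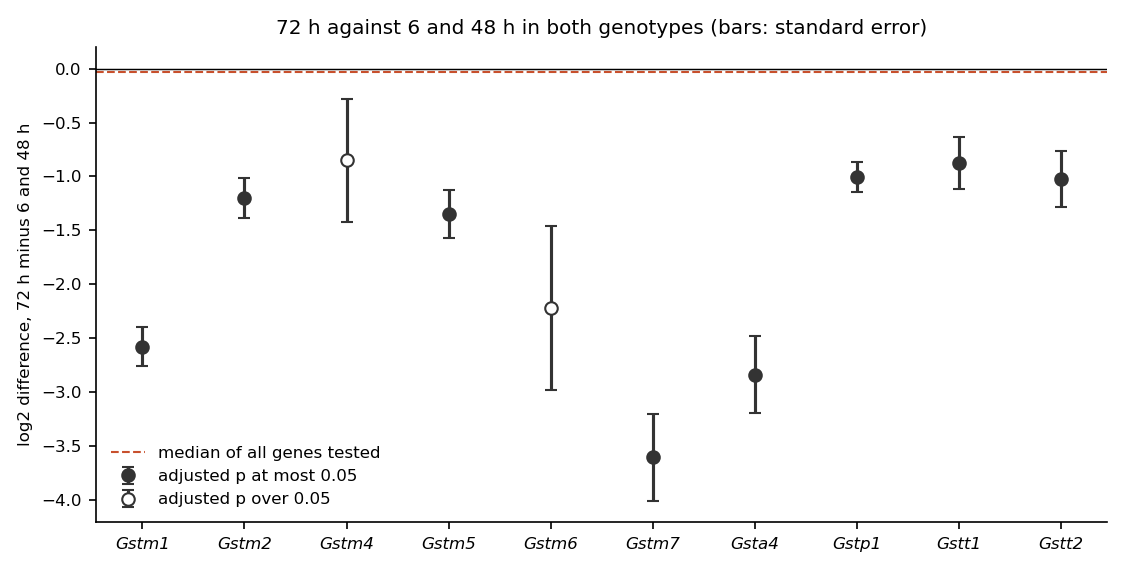
Log2 difference between 72 h and the libraries of 6 and 48 h for each member (vertical axis), with genotype as a term and bars of 1 standard error. Filled points have an adjusted p of at most 0.05 in edgeR, and the dashed line is the median of all genes tested, -0.03.

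Other genes of the pathway were followed with 6 lists of 102 genes in all, of which 85 were tested. They are not members, but the lists were put together with earlier results of these data known, so their counts are not independent evidence. A gene was called at the unadjusted limit with an absolute log2 fold change above 1 and an unadjusted p under 0.05, and at the adjusted limit with an absolute log2 fold change of at least 1 and an adjusted p of at most 0.05. At the unadjusted limit 10 of the 85 were lower and 1 was higher in the knock-out cells, where 4.04% of all genes were lower and 3.31% higher. At the adjusted limit 4 were lower and 0 higher, where 2.19% of all genes were called in either direction. With culture time as a block 10 were lower and 2 higher at the adjusted limit, against the shares of 4.67% and 3.78% over all genes. Their median log2 fold change was -0.04.

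Of 13 genes tested for the supply of glutathione, 3 were lower in the knock-out cells at the unadjusted limit, and they were the 2 subunits of glutamate-cysteine ligase, the rate-limiting enzyme of glutathione synthesis, and the cystine transporter. Gclc, the catalytic subunit, was at 239, 306 and 167 CPM at 6, 48 and 72 h in the floxed cells and at 94.8, 119 and 89.8 CPM in the knock-out cells. Gclm, the modifier subunit, was at 145, 177 and 128 CPM against 48.6, 64.5 and 71.6 CPM. Slc7a11, which brings in cystine, was at 109, 172 and 92.1 CPM against 32.5, 60.6 and 51.8 CPM.

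Over the 6 libraries the genotypes did not overlap for any of the 3 genes. In edgeR the log2 fold change was -1.29 (SE 0.205, adjusted p = 0.0254) for Gclm, -1.23 (SE 0.257, adjusted p = 0.0663) for Gclc and -1.37 (SE 0.311, adjusted p = 0.0893) for Slc7a11. With culture time as a block the adjusted p was 0.00119, 0.000734 and 0.00157. In the 24 h library labelled knock-out Gclm was at 139.9, Gclc at 241 and Slc7a11 at 117 CPM. These values lay within the range of the 4 floxed libraries (128 to 197, 167 to 312 and 92.1 to 313 CPM), so that over all 8 libraries the genotypes overlapped for all 3 genes. The log2 ratio to the floxed library of 24 h was -0.49, -0.37 and -1.42. Gss, which completes the synthesis of glutathione, had a log2 fold change of -0.43 (SE 0.193) and did not pass (edgeR adjusted p = 0.392).

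Among 13 tested genes of other glutathione transferases and related membrane enzymes, the directions were mixed, with a median log2 fold change of 0.57. Ptges, a glutathione-dependent membrane enzyme that makes prostaglandin E, was lower, at 64.7 ± 7.56 CPM in the floxed cells and 23.4 ± 3.23 CPM in the knock-out cells (mean ± SD, n = 3; log2 fold change -1.47, edgeR adjusted p = 0.0165). Mgst2, a microsomal transferase, was lower at the unadjusted limit (-1.89, edgeR adjusted p = 0.320), and Ltc4s, the synthase of leukotriene C, was higher there (1.18, edgeR adjusted p = 0.319) from at most 25 reads per library. At 24 h Ltc4s had 9 reads in the floxed library and 5 in the one labelled knock-out. With culture time as a block, Mgst2 was lower at the adjusted limit (adjusted p = 0.00361), and Mgst3, also microsomal, was higher (log2 fold change 1.10, adjusted p = 0.00573). The log2 ratio at 24 h was -0.75 for Mgst2 and 1.12 for Mgst3. Gsto1, the omega transferase and the most abundant gene of this list in CPM, was at 170 ± 10.98 and 254 ± 51.5 CPM and was not called. Gsta1, Gsta2, Gsta3, Gstm3, Gstk1 and Hpgds had at most 18 reads in any library and were not tested.

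Of 13 peroxidases, reductases and thiol enzymes tested, edgeR called 0 at either limit, where 7.35% of all genes passed the unadjusted limit. DESeq2 called 0 at the adjusted limit, and in edgeR 2 had an unadjusted p under 0.05 (Gsr and Gpx4, named after their values were seen). No share over all genes is given here for that p alone. The 2 most abundant enzymes of this list in CPM were Prdx6, with a log2 fold change of 0.35 (SE 0.175), and Gpx8, with 0.21 (SE 0.215). Of 11 genes of conjugate export and mercapturate steps, Dpep1 was lower at the adjusted limit. Dpep1, a membrane dipeptidase that splits cysteinylglycine conjugates, was at 69.2, 62.9 and 21.7 CPM in the floxed cells and at 5.37, 5.90 and 2.11 CPM in the knock-out cells, without overlap (log2 fold change -3.51, SE 0.573, edgeR adjusted p = 0.0283). In the 24 h library labelled knock-out, Dpep1 was at 67.2 CPM. With culture time as a block, Ggt5, which cleaves glutathione outside the cell, was higher at the adjusted limit, at 0.501 ± 0.473 and 1.34 ± 0.742 CPM (SD, n = 3; adjusted p = 0.0421), with 10 and 17 reads at 24 h.

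Of 28 genes of Nrf2, its regulators and its antioxidant targets, edgeR called 0 at the adjusted limit, where 2.19% of all genes were called. DESeq2 called 1 of them and 659 genes in all. In edgeR 6 had an unadjusted p under 0.05, and no share over all genes is given here for that p alone. At the unadjusted limit Nqo1, a quinone reductase, and Cbr3, a carbonyl reductase, were lower. Nqo1 was at 212 ± 80.5 and 91.4 ± 46.3 CPM (SD, n = 3; log2 fold change -1.20, edgeR adjusted p = 0.323, 0.00220 with the block), and Cbr3 at 12.4 ± 2.30 and 6.10 ± 0.567 CPM (log2 fold change -1.03, edgeR adjusted p = 0.0927, 0.00841 with the block). At 24 h the log2 ratio was 0.22 for Nqo1, with 239 CPM in the library labelled knock-out and 205 CPM in the floxed library, and -0.64 for Cbr3. Nfe2l2, which encodes Nrf2, was at 162 ± 15.8 and 147 ± 18.2 CPM.

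All 7 tested genes of xenobiotic sensors and their oxidases had a negative log2 fold change, and 2 were called at the unadjusted limit. Ahr, the receptor for dioxin-like compounds, was at 37.3, 97.7 and 74.9 CPM in the floxed cells and at 9.72, 28.3 and 23.7 CPM in the knock-out cells (log2 fold change -1.78, edgeR adjusted p = 0.142, 0.000187 with the block). Tiparp, a target of Ahr, was at 96.3 ± 6.33 and 38.7 ± 6.36 CPM (SD, n = 3; log2 fold change -1.32, edgeR adjusted p = 0.0165). In the 24 h library labelled knock-out, Tiparp and Ptges were no lower than in the floxed library of 24 h, with log2 ratios of 0.18 and 0.17, while Ahr was lower, with one of -1.18.

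**Figure D5:**
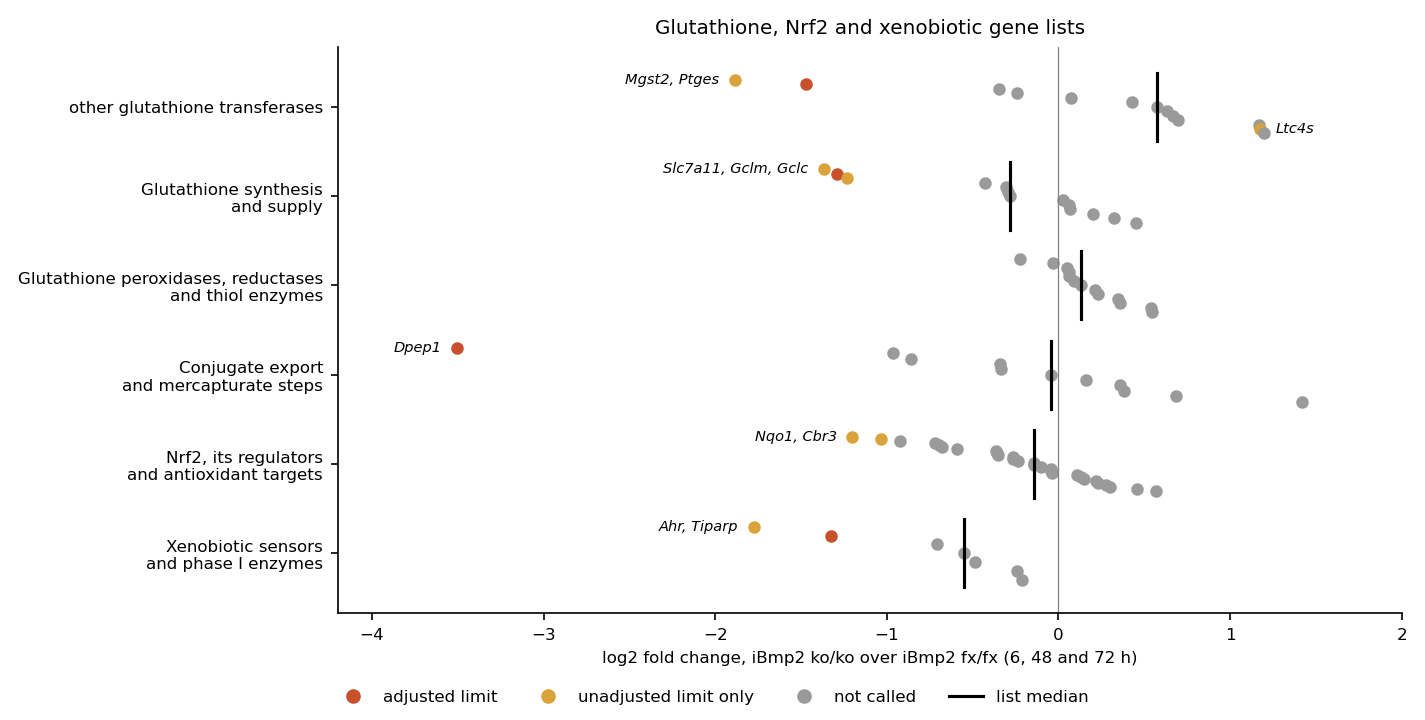
Log2 fold change between the genotypes over 6, 48 and 72 h (horizontal axis) for the 85 tested genes of 6 lists, with the list median as a vertical bar. Dpep1, Ptges, Gclm and Tiparp (red) passed the adjusted limit, and the genes in yellow passed the unadjusted limit alone.

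At 72 h, 23 of these 85 genes were lower and 3 higher than at 6 and 48 h at an adjusted p of at most 0.05 in edgeR, where 14.7% of all genes were lower and 11.3% higher. The other transferases had 6 lower and 1 higher of 13 tested, with a median log2 difference of -1.09, and the Nrf2 list had 9 lower of 28, with a median of -0.26. Mgst1, a microsomal transferase named here after its values were seen, was at 18.0 and 26.2 CPM at 6 and 48 h and 6.41 CPM at 72 h in the floxed cells, and at 25.6, 41.9 and 12.3 CPM in the knock-out cells. The export and mercapturate list had 4 lower of 11, with a median of -0.76. The median log2 difference was -0.01 in the list of glutathione synthesis, 0.21 in that of peroxidases and -0.09 in that of xenobiotic sensors.

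The genes next to the members were examined for the genotype contrast. Of the 10 neighbours of the Gstm cluster, 7 were tested and 0 were called at the adjusted limit by edgeR or DESeq2 or at the unadjusted limit by edgeR, with 2 (Fam40a and Ampd2) at an unadjusted p under 0.05. For this p alone a share over all genes is not given here. Ampd2, the first gene beyond Gstm4, was at 173 ± 11.9 CPM in the floxed cells and 129 ± 20.9 CPM in the knock-out cells (SD, n = 3; log2 fold change -0.43, edgeR adjusted p = 0.334). With culture time as a block 6 of the 7 (Fam40a, Ahcyl1, Csf1, Ampd2, Gnai3 and Amigo1) were lower at an adjusted p of at most 0.05 in edgeR, with 0.0199 for Ampd2 and 0 at the adjusted limit, which also asks for the fold. At the same adjusted p 11.4% of all genes and 42.2% of those on chromosome 3 were lower. Of the 7, only Gnat2 had a positive log2 fold change, 0.52 (SE 0.345), and the median over the 638 genes tested on chromosome 3 was -0.39. The median was 0.30 on chromosome 10, which holds Gstt1 and Gstt2, and 0.37 on chromosome 19, which holds Gstp1, while it was 0.01 on chromosome 9. Around Gstt1 and Gstt2 the log2 fold change was 0.70 (SE 0.426) for Gstt3, 0.59 (SE 0.329) for Ddt, 0.49 (SE 0.269) for Mif and -0.24 (SE 0.860) for Gstt4, which had at most 29 reads in a library. Around Gstp1 it was 0.99 (SE 0.400) for Doc2g, 0.50 (SE 0.230) for Ndufv1 and 0.63 (SE 0.793) for Gstp2, and around Gsta4 it was 0.10 (SE 0.269) for Ick and 0.14 (SE 0.340) for C920006O11Rik. The part of a shift over whole chromosomes in the values of the members was not tested.

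Genes with the pattern most like Gstm4 were ranked on log2 CPM by their Pearson correlation with it across all 8 libraries, which share the genotype split and the low 24 h library. The 5 highest were Zfp521 (0.997), Cdc42ep5 (0.993), Vhl (0.991), Hoxc10 (0.986) and Gulp1 (0.983). Zfp521 is a zinc finger transcription factor, Hoxc10 a homeobox transcription factor and Vhl the substrate receptor of a ubiquitin ligase. Zfp521 had 530, 408 and 235 reads at 6, 48 and 72 h in the knock-out cells, 34 in the 24 h library labelled knock-out and 16 to 19 in the floxed libraries. Hoxc10 had 363, 369 and 222 reads, 41 in the 24 h library and 24 to 38 in the floxed libraries. With this measure Gstt2 (0.78) and Gstt1 (0.70) were the members most like Gstm4, and Gsta4 (-0.41) the least.

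The promoters were read from RefSeq on GRCm38.p6, from 250 bases before to 50 after the start, with entries for 8 of the 10 members. The core of the antioxidant response element, TGACNNNGC, on either strand, was found in Gstm5 and Gstm7 and in 14% of the 27025 genes with a promoter. The core of the xenobiotic response element, GCGTG, on either strand, was found in Gstm1, Gstm5 and Gstp1 and in 35.2% of genes. In Gstm5 a match of one overlaps a match of the other. Neither pattern occurred in the windows of Gstm4. RefSeq gives Gstm7 a pair of starts, and the match lies 129 bases before the downstream one and not in the window of the upstream one. The matches of Gstm5 (chr3:107895802-107895830, plus strand) and Gstm7 (chr3:107931725-107931753, minus strand) are shown in capitals with 10 bases on each side. For Gstm4, the member read in 1 genotype, the 250 bases before the upstream of its 2 starts are shown (chr3:108044860-108045109, minus strand, all of GRCm38.p6). These matches are letters in a sequence and not measured binding sites.
Gstm5: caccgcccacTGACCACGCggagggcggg
Gstm7: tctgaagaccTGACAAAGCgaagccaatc
Gstm4: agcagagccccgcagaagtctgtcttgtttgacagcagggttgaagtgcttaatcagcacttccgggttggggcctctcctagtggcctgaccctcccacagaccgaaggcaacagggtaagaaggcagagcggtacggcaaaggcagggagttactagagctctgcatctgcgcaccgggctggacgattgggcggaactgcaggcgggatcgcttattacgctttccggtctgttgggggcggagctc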

How the data were processed

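RNA-seq covered 8 libraries of total RNA, with 1 floxed and 1 knock-out library at each of 6, 24, 48 and 72 h. The submitters' processing notes name CASAVA 1.8.2, TopHat2 2.0.8b, HTSeq and the build mm9. The authors deposited unnormalized counts per gene symbol for each library, and reads with several positions are not in them. The labels give unpaired reads of 50 bases, the study's methods paired ones. The deposited counts of lncRNA symbols were not used here. The 5 HTSeq summary counters per table were left out. One set of cell type markers is not reported here.

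Genotype, the log2 of culture time and their interaction were tested over 6 libraries (6, 48 and 72 h, 3 per genotype) with edgeR 4.0.16 in R 4.3.3, TMM factors, a filter of at least 10 counts (15 in total), the quasi-likelihood test and Benjamini-Hochberg adjustment over all genes. The alternatives were all 8 libraries, 7 libraries, culture time as a block, RLE factors, DESeq2 1.42.0, limma 3.58.1 (log2 CPM, offset 0.5), other filters and each library left out. Libraries of 1 culture time deviated together from their genotype means (correlation 0.73 at 6 h, 0.57 at 48 h and 0.87 at 72 h), so the block pairs them by culture time as the labels give it. The tests were tried on simulated data. Symbols were matched to GENCODE M1 on mm9 (95.7% matched). Windows of 50 bases were searched in the genome and in transferase transcripts with BLAST+ 2.17.0, and figures were drawn with matplotlib 3.10.9. p-values measure the spread between these libraries, which come from no separate cultures named in the labels.

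The members and lists were chosen with earlier results of these data known. The text names all members, the list genes past the unadjusted limit or else the 2 most abundant, the tested genes next to them and the 5 genes most like Gstm4. Gss, Gsto1, Nfe2l2, Mgst1, Mgst3, Ggt5, Gsr, Gpx4 and the untested genes were named after their values were seen. Ranking by log2 CPM used a prior count of 2.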

Additional observations from a re-analysis of the deposited data

Results flagged for a closer look

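Gstp1 in the floxed library of 72 h, at 39.9 CPM, lay far below the other 3 libraries of its genotype, of which the nearest was at 83.8 CPM. By Dixon's limit for 4 values, such a gap arises by chance in about 1 of 20 groups of replicates, and 19 sets of 4 libraries were screened. The 4 libraries of a set differ in culture time and are no replicates, so this rate does not hold for them. In the knock-out cells Gstp1 was also lowest at 72 h, at 59.9 CPM.

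At 24 h the log2 ratio of the knock-out to the floxed library had the opposite sign to the ratios of 6, 48 and 72 h for 5 members. It was 0.70 for Gstm5, 0.42 for Gstm6, 1.02 for Gstm7, -0.016 for Gstp1 and -0.22 for Gstt2. The difference was not tested, since each ratio rests on 1 library per genotype. The 24 h library labelled knock-out is the one whose levels lay nearer to the floxed mean for 283 of 287 genes.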

How the results depend on the processing

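Alternatives fitted over more than 1 culture time are counted first, each for the members tested in it. The direction between the genotypes kept its sign in all of them for Gstm5, Gstm6, Gsta4, Gstp1, Gstt1 and Gstt2. Gstm1 and Gstm2 kept it in 11 of 15 and Gstm7 in 12 of 14. Gstm4 had no floxed read, so its sign could not change. It was tested in 12 alternatives and in none over all 8 libraries. At 24 h alone the direction was the opposite for Gstm5 (0.70), Gstm6 (0.42), Gstp1 (-0.016) and Gstt2 (-0.22). The number of genes called between genotypes at the adjusted limit, 287 of 13121, moved more. It was 659 with DESeq2, 144 with at least 10 counts in every library, 1109 with culture time as a replicate block over 6 libraries and 37 with the block over all 8. Over all 8 libraries without a block edgeR called 0, and 463 at the unadjusted limit in place of 964. Leaving out 1 library gave 9 to 378 genes, with 9 without the knock-out library of 48 h, 14 without the floxed library of 48 h, 88 and 90 without the floxed and knock-out libraries of 6 h and 159 without the floxed library of 72 h. In the 6 lists 4 genes were called at the adjusted limit, 8 with DESeq2, 12 with the replicate block over 6 libraries, 2 with the block over 8, 0 over all 8 libraries without a block, and 0 to 4 with 1 library left out (0 without either library of 48 h and 1 without either of 6 h). At the unadjusted limit they had 11 calls, 3 over all 8 libraries, and 7 to 14 with 1 library left out, 7 being without the floxed library of 48 h. The cause was not tested. For the time trend of the members, 0 were called in the other alternatives, and 8 (edgeR and DESeq2) or 7 (24 h included, 8 or 7 libraries) with 72 h as its own level. Members without overlap between genotypes numbered 2, with 1 over all 8 libraries and 1 with CPM on total counts. Of the 5 genes most like Gstm4, 3 stayed in the 5 highest without the 24 h library labelled knock-out, and 3 with a prior count of 0.5.

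With 1 library per genotype and time, no value here has a replicate at the same time. At the depth of these libraries 3 reads correspond to 0.0930 to 0.124 CPM (TMM-scaled), and Gstm4 at 24 h and Gstm6 at 72 h lie at about that level.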
